A study of Mus musculus with 11 samples.

Results

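The genes described here are the ligands and receptors of the 4 classical axon guidance systems, as read in the striatum of BACHD mice given an inhibitor of the interaction of Spt5 with RNA polymerase II. They were chosen by gene name: class 3 to 7 semaphorins and A to D plexins, A and B ephrins and their Eph receptors, Slit1 to Slit3 and Robo1 to Robo4, and the netrins Ntn1, Ntn3, Ntn4 and Ntn5 with Unc5a to Unc5d. Of 20957 genes in the table, 65 matched, and all 65 had a normalized read count of at least 10 in at least 3 of the 11 libraries, a limit that 16768 genes passed. They comprise 20 semaphorins, 14 Eph receptors, 9 plexins, 8 ephrins, 4 Robo receptors, 4 Unc5 receptors, 3 Slits and 3 netrins. The members nearest to the limit were Ntn5 and Sema3a, each at or above 10 in 7 libraries, and no matching gene fell below it. For Sema3a none of the 3 SPI-77 libraries reached 10, so this gene passed through the other groups.

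Axon guidance proteins steer growing axons by attraction and repulsion. Semaphorins act on plexins, class 3 members mostly through neuropilin co-receptors. Ephrins are bound to the membrane and signal at cell contacts through Eph receptor kinases, Slits repel through Robo receptors, and netrins attract through Dcc and repel through Unc5 receptors. In the adult brain many of these proteins remain at synapses, on blood vessels and on glia, and in the striatum ephrin and Eph proteins are known for their part in separating striosome from matrix neurons.

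All mice carried the BACHD transgene, which adds the whole mutant human huntingtin gene to the mouse Htt gene, on the FVB/N background. They were bred as heterozygotes, and wild-type animals are not part of this comparison. The groups received DMSO (the vehicle, 4 libraries), SPI-24 (4 libraries) or SPI-77 (3 libraries) under the skin on 4 days, and small punches of striatum were taken 6 h after the last dose. The labels give no dose, age, sex or place of sequencing, and the methods name a pair of sequencing sites without tying them to libraries, so the compounds could not be compared at matched doses. The compounds are known here by their codes only. The labels number the libraries as biological replicates but do not say how animals were assigned to them, so p-values measure the spread between these libraries.

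Poly(A) RNA was sequenced with a stranded kit, and between 10.2 M (SPI-77 3) and 33.8 M reads (DMSO 4) were recovered per library. The 65 genes took 0.269% to 0.321% of the reads of a library. SPI-24 4 stood apart with 16263 genes detected and 1464 of the tested genes at 0, and SPI-77 3 had 17932 genes detected and 550 at 0. Of the 65 genes only Efna4 was at 0 in a library, SPI-24 4. The summed level of 19 medium spiny neuron markers, which mark the main projection neurons of the striatum, ranged from 43231 to 148526 with DMSO, from 12386 to 124052 with SPI-24 and from 13951 to 17010 with SPI-77. All of these markers were above 0 in every library except Gpr6 in SPI-77 3. The summed level of 14 thalamic neuron markers ranged from 4969 to 21908, from 15254 to 49744 and from 17304 to 22183 in the same groups. Xist, which is expressed in females, was 3333 or more in the DMSO libraries 1 and 3 and in the SPI-24 libraries 1, 2 and 4, and at most 7.70 elsewhere, the SPI-77 libraries included. In such bulk tissue, fewer cells of a type and less RNA per cell cannot be told apart.

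With DMSO, the guidance genes differed widely in level when the mean normalized count was divided by exon length. Among the ligands, Efnb3, an ephrin that blocks corticospinal axons from recrossing the midline, was the highest at 1613 ± 270 per kb (SD, n = 4). Sema7a, a membrane-anchored semaphorin that binds integrins and plexin C1, followed at 849 ± 89.3 per kb (SD, n = 4). Slit1 had 140.0 ± 72.5 per kb (SD, n = 4) and the basement membrane netrin Ntn4 37.5 ± 6.48 per kb (SD, n = 4). Among the receptors, the highest of each class were the netrin receptor Unc5a at 422 ± 128 per kb, the kinase-dead Eph receptor Ephb6 at 364 ± 126 per kb, the Sema4d receptor Plxnb1 at 242 ± 43.6 per kb and Robo3, which acts in commissural axons, at 54.2 ± 28.2 per kb (SD, n = 4 each). In the order of these 8 levels, the ranges of mean ± SD of neighbours were apart between Efnb3 and Sema7a and between Sema7a and Unc5a, and overlapped for every later pair. The lowest per length were the Eph receptor Epha2 at 3.53 and the semaphorin Sema3d at 3.87 per kb.

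**Figure D1:**
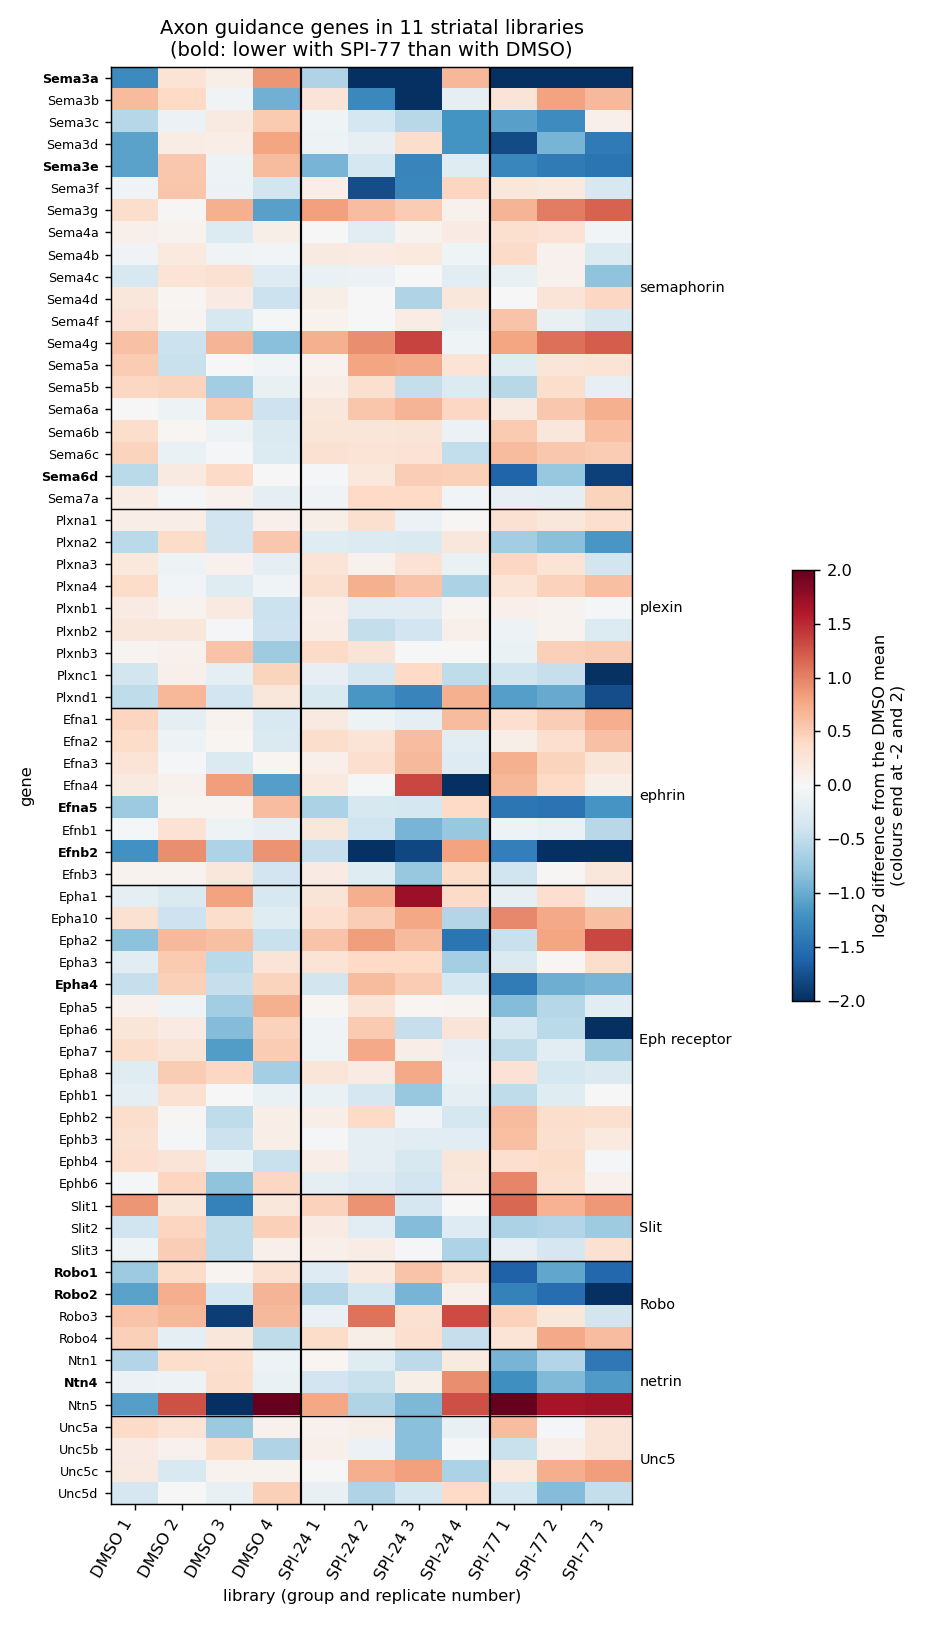
Each of the 65 axon guidance genes (one line of cells each, grouped by class) in each of the 11 libraries, as the log2 difference of its normalized count from the DMSO mean; blue is lower, red higher, and colours end at -2 and 2. The 9 genes in bold were lower with SPI-77 than with DMSO by the limma test, and their cells are blue in all 3 SPI-77 libraries.

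With SPI-24, no ligand or receptor passed the test against DMSO. Genes were compared with limma on log2(normalized count + 1) over all 11 libraries, and a gene was called where its adjusted p was below 0.05 and its level differed 2-fold or more. By this rule 0 of 65 genes were higher and 0 lower, where the share over all genes tested was 0% in each direction. The lowest adjusted p of a guidance gene was 0.975 by limma, and edgeR and DESeq2 on the recovered reads also called 0. At an unadjusted p below 0.05 limma gave 2 genes, both higher, edgeR 3 and DESeq2 4. Over all genes tested, limma gave 1.87% higher and 1.86% lower at that limit, and nothing is read from these counts. No guidance gene separated the groups without overlap, against 0.99% of all genes for SPI-24 above DMSO and 0.817% for SPI-24 below it. The median log2 fold change was 0.03 over the 65 genes and -0.02 over all genes tested.

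The smallest unadjusted p-values in that comparison belonged to a pair of transmembrane semaphorins and an Eph receptor. Sema6a, a ligand of the A plexins, had normalized counts of 791, 732, 1126 and 590 in DMSO 1 to 4 and of 924, 1159, 1266 and 1053 in SPI-24 1 to 4. DMSO 3 lay within the SPI-24 range and the other DMSO libraries below it, and the log2 fold change was 0.47 ± 0.19 (SE; limma adjusted p = 0.975). Sema5a, a semaphorin with thrombospondin repeats, had 1435, 741, 1014 and 977 against 1061, 1755, 1721 and 1231, where only DMSO 1 reached into the SPI-24 range, with a log2 fold change of 0.48 ± 0.22 (SE; limma adjusted p = 0.975). Ephb1, a receptor for B ephrins, had 901, 1249, 1027 and 923 against 928, 803, 600 and 884, with a log2 fold change of -0.36 ± 0.17 (SE; limma adjusted p = 0.975). The 95% interval of the Sema6a difference ran from 0.06 to 0.88, that of Sema5a from 0.0043 to 0.95 and that of Ephb1 from -0.72 to 0.01. Sema3a had the largest fitted difference of the 65 genes, -1.37 ± 0.78 (SE), with counts of 46.4, 16.4, 5.39 and 113.8 in SPI-24 1 to 4 of which SPI-24 2 and SPI-24 3 lay below the DMSO range of 28.7 to 131.9 and the others within it.

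With SPI-77, 9 of the 65 genes were lower than with DMSO and none was higher. The 9 were the ligands Sema3a, Sema3e, Sema6d, Efna5, Efnb2 and Ntn4 and the receptors Epha4, Robo1 and Robo2. Of these, Sema3a had passed the limit on counts only through the other groups, where it is higher, so its place in the count is partly built in. They were 13.8% of the guidance genes, where 5.28% of all genes tested were lower, and 0% were higher, where the share over all genes was 1.12%. Without the limit on the fold change, 11 genes (16.9%) were lower against 9.14% of all genes, the other 2 being Plxna2 and Ntn1, and none was higher against 8.03%. The groups did not overlap in 15 genes (23.1%) for SPI-77 below DMSO, against 15.3% of all genes, and in 5 (7.69%) for SPI-77 above DMSO, against 17.2%. The median over the 65 genes was 0.03 and over all genes -0.01 on the log2 scale.

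The count of 9 rested on single libraries. It was 0 when DMSO 2, DMSO 4, SPI-77 1 or SPI-77 3 was left out, with a lowest limma adjusted p of 0.0624, 0.0536, 0.0584 and 0.0836, and no gene of the whole table was then called. It was 4 without SPI-77 2, 6 without DMSO 3 and 0 without both SPI-24 4 and SPI-77 3. Over all genes, both directions together, these fits called 750, 788 and 0, where the main fit called 1073 of 16768. Without DMSO 1, 13 genes were lower and Sema4g was higher, as it also was without SPI-24 4. Those fits called 1867 and 1567 genes of the whole table, so calls rose over all genes too. All 9 kept a fold change below 0 in each of these fits. In all 9, every SPI-77 library lay below every DMSO library, so leaving libraries out could not change the sign. This is no support for the calls.

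Among the semaphorins, 3 of 20 were lower, where 5.28% of all genes tested were. Sema3a, 1 of the 3, had passed the limit on counts only through the other groups. No difference from the share over all genes is read from any single class, here or below. Sema6d, a transmembrane semaphorin that acts through plexin A1 and A4 (chr2:124089969-124667770, plus strand, GRCm38), had normalized counts of 442, 727, 837 and 639 in DMSO 1 to 4, of 626, 749, 907 and 894 in SPI-24 1 to 4 and of 212, 378 and 175 in SPI-77 1 to 3. Every SPI-77 library lay below every other library. The log2 fold change against DMSO was -1.41 ± 0.27 (SE; limma adjusted p = 0.0179). Sema3e, the secreted ligand that binds plexin D1 without a neuropilin and acts between thalamic axons and direct-pathway medium spiny neurons, had 111.5, 339, 217 and 364 with DMSO and 94.6, 86.9 and 83.9 with SPI-77, a log2 fold change of -1.39 ± 0.38 (SE; limma adjusted p = 0.0305). Of its SPI-24 counts, 121.8, 182.8 and 196.9 in libraries 1, 2 and 4 lay within the DMSO range and 92.6 in SPI-24 3 lay within the SPI-77 range. Sema3a, a secreted repellent that acts through Nrp1, had 28.7, 86.2, 77.2 and 131.9 with DMSO and 9.32, 9.90 and 3.57 with SPI-77, a log2 fold change of -3.17 ± 0.85 (SE; limma adjusted p = 0.0282). Its SPI-77 values rest on 7, 9 and 2 reads.

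The other 17 semaphorins ranged in their fitted log2 fold change from -1.37 for Sema3d to 1.04 for Sema4g, and none was called. Sema4g was the one with both a fold change over 2 and SPI-77 libraries (2105, 2612 and 2824) all above DMSO (1832, 902, 1952 and 679), at a limma adjusted p of 0.0871. Sema6b, Sema4d and Sema7a, the most abundant members per length, had log2 fold changes of 0.45 ± 0.16, 0.23 ± 0.21 and 0.03 ± 0.18 (SE). The class 3 semaphorin genes Sema3d, Sema3a, Sema3e and Sema3c all lie on chromosome 5 and had fitted values of -1.37, -3.17, -1.39 and -0.75, whereas Sema3b and Sema3f on chromosome 9 and Sema3g on chromosome 14 had 0.57, 0.03 and 0.96. Those on chromosome 5 span 156 to 477 kb and the others 11.6 to 29.0 kb, so chromosome and gene span cannot be told apart among them.

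None of the 9 plexins, the semaphorin receptors, was called. Plxnd1, the receptor of Sema3e, came nearest in size, with counts of 589, 1338, 644 and 983 with DMSO and 390.3, 417 and 246 with SPI-77. These groups did not overlap, and the log2 fold change was -1.29 ± 0.45 (SE; limma adjusted p = 0.0683). SPI-24 2 and SPI-24 3, at 374 and 337, lay within the SPI-77 range of Plxnd1, and SPI-24 4, at 1373, lay above every DMSO library. Plxna2, a class A plexin, passed the adjusted p but not the fold limit, at -0.90 ± 0.25 (SE; limma adjusted p = 0.0329). Plxna1, Plxna3, Plxna4, Plxnb1 and Plxnb3 had fitted values above 0, between 0.04 and 0.45.

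In the ephrin system, 2 of 8 ligands and 1 of 14 receptors were lower, where 5.28% of all genes tested were. Efna5, a membrane-anchored ephrin that orders topographic maps (chr17:62604184-62881317, minus strand), had 86.2, 148.4, 147.8 and 219 with DMSO and 52.0, 50.6 and 62.5 with SPI-77, a log2 fold change of -1.37 ± 0.33 (SE; limma adjusted p = 0.0212). Efnb2, a transmembrane ephrin of neurons and arteries, had 135.6, 605, 206 and 594 with DMSO and 122.5, 57.2 and 28.6 with SPI-77, a log2 fold change of -2.41 ± 0.75 (SE; limma adjusted p = 0.0486). The Efna5 libraries of SPI-24, from 91.6 to 187.8, lay above all SPI-77 libraries, whereas those of Efnb2, at 231, 80.2, 89.4 and 554, overlapped both other groups. Epha4, a receptor for A and B ephrins that marks striatal matrix neurons in development (chr1:77367185-77515088, minus strand), had 797, 1531, 794 and 1501 with DMSO, 849, 1696, 1560 and 863 with SPI-24 and 416, 557 and 575 with SPI-77. Its SPI-77 libraries lay below all others, at a log2 fold change of -1.10 ± 0.31 (SE; limma adjusted p = 0.0343). In both other groups its libraries fell into a low pair and a high pair.

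The other 13 Eph receptors ranged from -0.995 for Epha6 to 0.77 for Epha10, and the other 6 ephrins from -0.26 for Efnb1 to 0.52 for Efna1. Efnb3, the most abundant ephrin, had a log2 fold change of -0.04 ± 0.25 (SE) with a 95% interval from -0.58 to 0.49. Ephb6 had 0.47 ± 0.29 (SE) with an interval from -0.17 to 1.10. Epha10, a receptor without an active kinase, had 1065, 645, 1095 and 727 with DMSO and 1669, 1453 and 1308 with SPI-77, groups that did not overlap (limma adjusted p = 0.0781).

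Of the Slit and Robo genes, the receptors Robo1 and Robo2 were lower, and the 3 Slit ligands and the receptors Robo3 and Robo4 were not called. Robo1 (chr16:72308306-73046095, plus strand) had 151.7, 323, 260.3 and 310.2 with DMSO, 209, 288, 374 and 314 with SPI-24 and 81.3, 122.1 and 83.9 with SPI-77. Every SPI-77 library lay below every other library, and the log2 fold change against DMSO was -1.40 ± 0.29 (SE; limma adjusted p = 0.0179). Robo2, also on chromosome 16 (chr16:73891839-74411825, minus strand), had 231, 799, 381 and 780 with DMSO, 321, 378, 253 and 520 with SPI-24 and 189.1, 168.3 and 99.96 with SPI-77, a log2 fold change of -1.71 ± 0.41 (SE; limma adjusted p = 0.0227). Here too the SPI-77 libraries lay below all others, while DMSO 2 and DMSO 4 were at least 2-fold above the other DMSO libraries. Robo3, with 0.11 ± 0.58 (SE), and Robo4, the Robo of blood vessels, with 0.55 ± 0.27 (SE), had fitted values above 0. Slit1, Slit2 and Slit3 had 0.90 ± 0.44, -0.64 ± 0.30 and -0.07 ± 0.27 (SE).

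Of the netrins and their Unc5 receptors, Ntn4 was lower. Ntn4 (chr10:93640681-93747207, plus strand) had 127.5, 129.8, 176.5 and 126.8 with DMSO, 105.7, 101.7, 150.8 and 266 with SPI-24 and 58.6, 74.8 and 62.5 with SPI-77. The SPI-77 libraries lay below all others, and the log2 fold change was -1.08 ± 0.32 (SE; limma adjusted p = 0.0362). Ntn1, the attractant that binds Dcc, passed the adjusted p but not the fold limit, at -0.99 ± 0.29 (SE; limma adjusted p = 0.0366). Ntn5 moved the other way, with 146.5, 36.3 and 37.5 in SPI-77 1 to 3 against 4.60, 27.8, 1.10 and 59.4 with DMSO. These groups overlapped, and the log2 fold change of 2.32 ± 1.04 (SE) had a limma adjusted p of 0.134. Exons of Ntn5 overlap those of Sec1 on the other strand, and no source states the strand setting of the counting, so its counts are uncertain. Unc5a, Unc5b, Unc5c and Unc5d had 0.28 ± 0.29, -0.03 ± 0.27, 0.58 ± 0.31 and -0.57 ± 0.27 (SE).

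**Figure D2:**
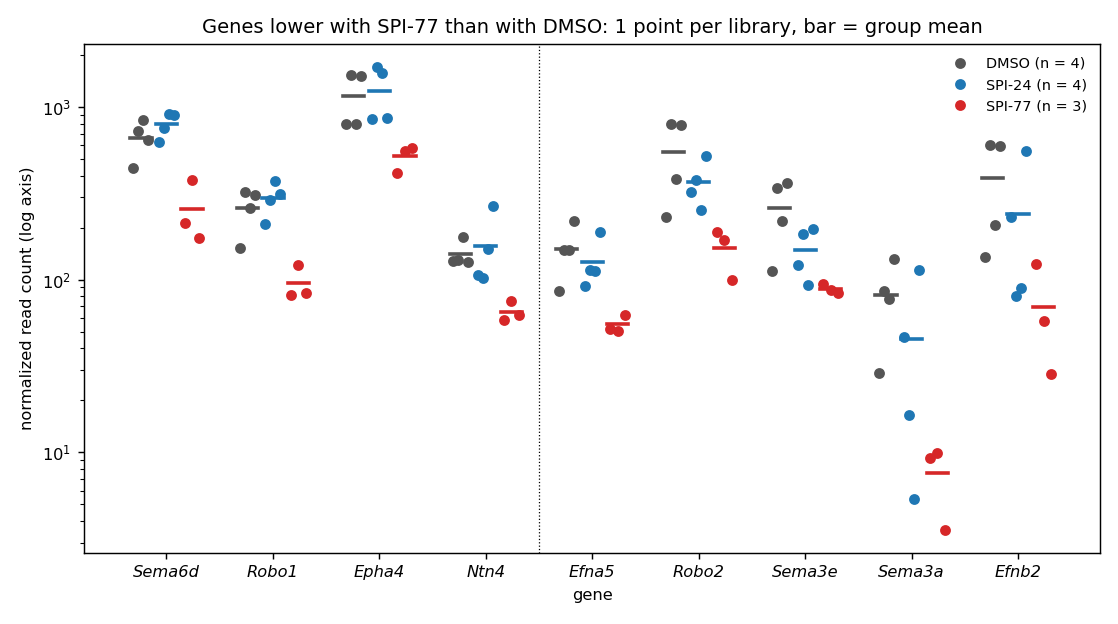
Normalized read counts (log axis) of the 9 genes that were lower with SPI-77 than with DMSO; each point is a library and each bar a group mean (DMSO n = 4, SPI-24 n = 4, SPI-77 n = 3). Left of the dotted line are the 4 genes that were also lower with SPI-77 than with SPI-24; their SPI-77 points lie below all others, while for Sema3e, Sema3a and Efnb2 some SPI-24 points reach the SPI-77 points.

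Between the compounds, 4 of the 65 genes were lower with SPI-77 than with SPI-24 and none was higher. They were Sema6d (-1.70 ± 0.27, SE; adjusted p = 0.0372), Robo1 (-1.61 ± 0.29; 0.0372), Epha4 (-1.21 ± 0.31; 0.0431) and Ntn4 (-1.14 ± 0.32; 0.0485), all by limma. They made up 6.15% of the guidance genes, where 2.45% of all genes were lower with the fold limit and 3.96% without it, and the shares of higher genes over the whole table were 0.34% and 3.05%. Efna5 came next at -1.14 ± 0.33 (SE; limma adjusted p = 0.0516). The comparison shares its SPI-77 libraries with the one against DMSO. With other fits Sema3b was higher (without SPI-24 1, with the sex term and by DESeq2 with a replicate block), and so was Ntn5 (by the last of these). The count of lower genes was 0 without DMSO 3, SPI-24 2, SPI-24 3, SPI-24 4, SPI-77 1 or SPI-77 3, and 1 without SPI-77 2. The fits with 0 called no gene of the whole table, and the fit without SPI-77 2 called 3. For Sema3a the difference was -1.80 with a 95% interval from -3.63 to 0.03, for Efnb2 -1.55 with an interval from -3.21 to 0.10 and for Sema3e -0.68 with an interval from -1.51 to 0.15.

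The 4 genes that were lower in both comparisons with SPI-77 are shown by the 250 bases before their RefSeq start (GRCm38.p6, 5' to 3' on the gene's strand). They share a direction because they were selected for it. Capitals mark GGGCGG on either strand, the core of the GC box bound by Sp factors. The windows are chr1:77515089-77515338 (minus strand) for Epha4, chr10:93640799-93641048 (plus) for Ntn4, chr16:72662899-72663148 (plus) for Robo1 and chr2:124089719-124089968 (plus) for the first of the annotated starts of Sema6d. The RefSeq starts of Ntn4 and Robo1 lie inside their longer GENCODE genes, so these windows lie within the genes.
Epha4: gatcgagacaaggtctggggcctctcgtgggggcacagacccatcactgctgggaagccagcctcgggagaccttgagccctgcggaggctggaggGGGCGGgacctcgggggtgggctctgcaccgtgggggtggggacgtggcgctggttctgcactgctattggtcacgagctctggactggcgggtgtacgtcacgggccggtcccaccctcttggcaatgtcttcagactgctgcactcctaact
Ntn4: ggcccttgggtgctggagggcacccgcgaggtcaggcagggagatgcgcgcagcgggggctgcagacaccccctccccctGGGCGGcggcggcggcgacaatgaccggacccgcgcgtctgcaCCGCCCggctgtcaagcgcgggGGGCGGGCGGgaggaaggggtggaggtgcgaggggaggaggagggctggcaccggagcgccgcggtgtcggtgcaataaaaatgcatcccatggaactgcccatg
Robo1: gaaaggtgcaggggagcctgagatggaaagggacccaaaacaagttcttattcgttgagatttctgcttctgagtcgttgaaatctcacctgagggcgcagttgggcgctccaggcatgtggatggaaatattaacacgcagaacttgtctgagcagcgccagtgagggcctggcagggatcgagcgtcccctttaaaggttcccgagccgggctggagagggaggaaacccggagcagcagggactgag
Sema6d: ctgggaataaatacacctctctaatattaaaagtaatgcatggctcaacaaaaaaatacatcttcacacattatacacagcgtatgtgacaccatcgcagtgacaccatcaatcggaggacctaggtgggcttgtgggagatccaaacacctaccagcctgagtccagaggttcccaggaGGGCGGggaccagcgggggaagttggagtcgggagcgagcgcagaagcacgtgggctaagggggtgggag
The window of Ntn4 held 4 matches, overlapping ones counted, those of Epha4 and Sema6d 1 each, and that of Robo1 none. In the windows shown, GC content ran from 52.4% for Sema6d to 73.2% for Ntn4, with 9 to 26 CG pairs. Another Sema6d window, chr2:124653331-124653580 and not shown, had 45.2% GC, 6 CG pairs and no GGGCGG. Of the 65 genes, 56 matched RefSeq with 72 windows in all, of which 69.4% held GGGCGG. Over all 32851 RefSeq windows, from 27025 genes not limited to those detected or tested here, 32.7% did. These shares are thus not matched for expression. Of the 12 windows of the 9 lower genes, 6 held it. Median GC was 64.2% over the guidance gene windows, 52.4% over all RefSeq windows, 54.6% over the 12 windows and 64.4% over the other 60. TATAAA was in 2.78% of guidance gene windows and 12.4% of all RefSeq windows. These are letter matches, not sites shown to be bound.

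The genes that were lower shared a property that the choice by name did not use. From first to last annotated base, 8 of the 9 spanned 100 kb or more, from 106.5 kb for Ntn4 to 738 kb for Robo1, and Efnb2, at 43.8 kb, was the exception. Sema3a, among the 8, had passed the limit on counts only through the other groups. The split at 100 kb was chosen after the values were seen. Of the 29 guidance genes at or above it, 21 had a fitted log2 fold change below 0 against DMSO and 8 (27.6%) were lower, with a median of -0.64. Of the 36 shorter ones, 8 were below 0 and 1 (2.78%) was lower, with a median of 0.25. Over all genes tested, 11.7% of the 2325 long genes were lower with a median of -0.36, and 4.24% of the 14427 shorter genes with a median of 0.04. Fitted values below 0 made up 70.4% of all long genes and 47.6% of all shorter ones. Among the guidance genes the shares were 72.4% and 22.2%, so for long genes the share was near that over all genes. The rank correlation of span with the fold change was -0.57 over the 65 genes and -0.30 over 16752 genes with a span. These are correlations across genes, which share the libraries and are not independent replicates. Not all long members were low: Plxna4 at 444 kb, Unc5c at 370 kb and Slit1 at 143 kb had 0.45, 0.58 and 0.90.

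**Figure D3:**
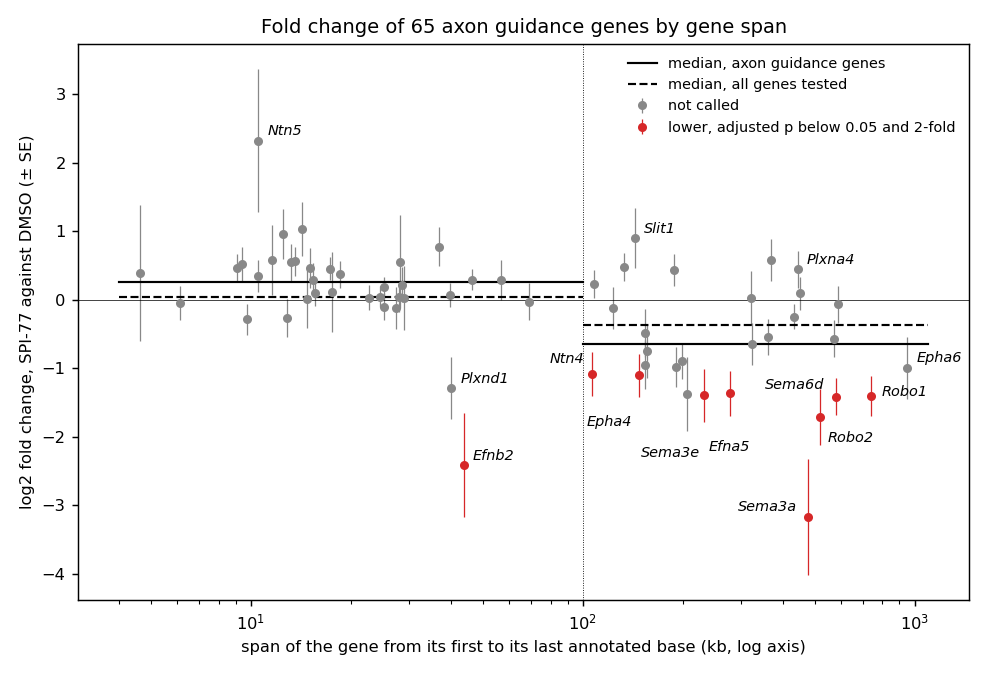
Log2 fold change of SPI-77 against DMSO (points, ± SE) against gene span (kb, log axis) for the 65 axon guidance genes; red points passed the limma test and the fold limit. Lines are the medians below and above 100 kb, solid for the guidance genes (0.25 and -0.64) and dashed for all genes tested (0.04 and -0.36); 8 of the 9 red points lie right of 100 kb.

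In single libraries, the median log2 difference from the DMSO mean of the 29 long genes was -0.56, -0.57 and -0.71 in SPI-77 1 to 3, and that of the 36 short genes was 0.31, 0.27 and 0.21. The long median minus the short one was thus -0.87, -0.84 and -0.93 with SPI-77. With DMSO it was -0.40, 0.09, -0.11 and 0.59, and with SPI-24 it was -0.25, 0.10, -0.11 and 0.07. The SPI-77 libraries lay below all 8 others, and DMSO 1 was the nearest to them. Over all genes the same quantity was -0.43, -0.36 and -0.39 with SPI-77 and lay between -0.25 and 0.15 in the other libraries. For SPI-24 against DMSO, the long and short guidance genes had medians of -0.06 and 0.09, and the rank correlation with span was -0.15 over 65 genes. For SPI-77 against SPI-24 the medians were -0.64 and 0.20. Over the 23 other fits the long median of SPI-77 against DMSO stayed between -0.82 and -0.39 and the short one between 0.14 and 0.31. Not all of these fits are checks on the medians. Dropping the filter, using only the groups compared or leaving out an SPI-24 library cannot change them and returned the main values.

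**Figure D4:**
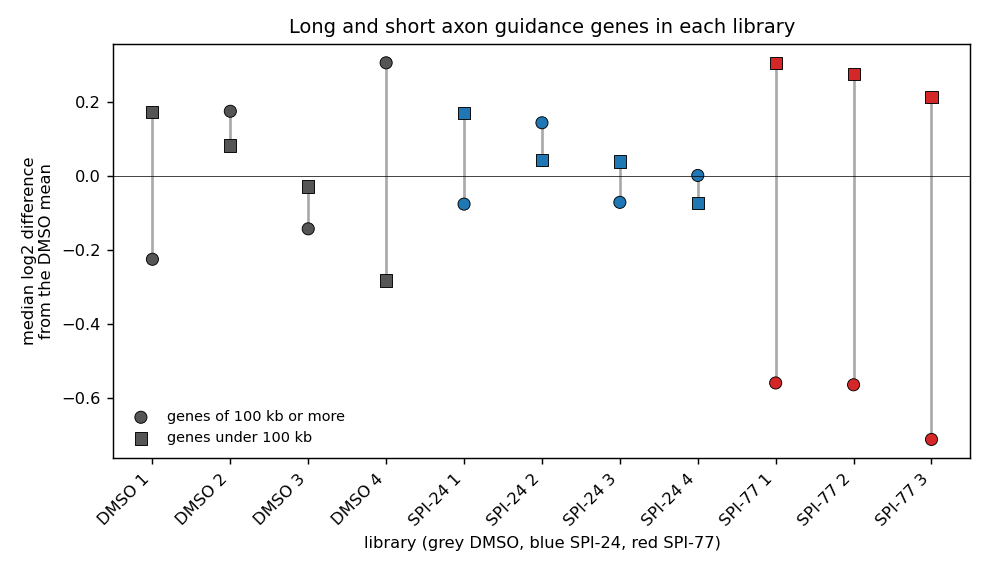
Median log2 difference from the DMSO mean in each library, over the 29 axon guidance genes spanning 100 kb or more (circles) and the 36 shorter ones (squares). In SPI-77 1 to 3 the circles are at -0.56, -0.57 and -0.71 and the squares at 0.31, 0.27 and 0.21; the other 8 libraries show smaller gaps, in either order.

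Span could not be told apart from base composition here. Over the 65 genes, span had a rank correlation of -0.60 with the GC content of the longest transcript and of 0.71 with exon length. GC content had a rank correlation of 0.48 with the SPI-77 fold change against DMSO over the 65 genes, and exon length one of -0.33. Over all genes tested these were 0.40 and -0.30.

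Markers of medium spiny neurons moved with the same comparison. Of 19 tested, 11 were lower with SPI-77 than with DMSO and none was higher, the median being -2.64 on the log2 scale, and 6 of 7 cholinergic interneuron markers were lower. Of 14 thalamic markers 2 were higher, and of 7 mural cell markers 3 were higher. The shares over all genes tested were 5.28% lower and 1.12% higher. When the medium spiny score (the mean log2 level of the listed markers) was added as a term, the count of lower guidance genes fell from 9 to 0 by limma, with a lowest adjusted p of 0.336. No gene of the whole table was called either. The score was 7.79 to 8.45 in the SPI-77 libraries and 9.93 to 11.95 in the DMSO libraries, without overlap. Markers lower with SPI-77 also enter the score, so this fit cannot tell the compound from the marker level. In that fit all 9 genes kept a log2 fold change below 0, and none of them passed. With sex read from Xist as a term, 9 genes were lower and Sema3g was higher, 6 of the 9 being among those named above. Over all genes that fit called 1544 in both directions together, against 1073 in the main fit.

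SPI-24 2 and SPI-24 3 had medium spiny sums of 13579 and 12386, as low as the SPI-77 libraries, and their long minus short values were 0.10 and -0.11. They stood apart from the SPI-77 libraries in other markers, with thalamic sums of 32207 and 49744 against 17304 to 22183 and choroid plexus sums of 4204 and 2616 against 32535 to 93646. In both of them, 6 of the 9 lower genes, namely Efna5, Epha4, Ntn4, Robo1, Robo2 and Sema6d, were above every SPI-77 library. For Sema3a, Sema3e and Efnb2 at least 1 of the 2 was not. The 9 were chosen for being low with SPI-77, so nothing is read from that count. Over all 65 guidance genes 15 (23.1%) were above every SPI-77 library in both, and over all genes tested 25.7% were. SPI-24 differed from DMSO in treatment too, and the part of tissue makeup in these results was not tested beyond these values.

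The other genes of the guidance pathways were read from lists of co-receptors and adhesion partners, further ligands and cytoplasmic transducers. With SPI-24, 0 of 12, 0 of 11 and 0 of 43 tested genes passed against DMSO. With SPI-77, 1 of 12 co-receptors was higher, 2 of 11 ligands were lower and 1 of 43 transducers was higher, with medians of -0.08, -0.50 and -0.02. Over all genes tested, 1.12% were higher and 5.28% lower with SPI-77, and no difference from these shares is read from lists this short. Nrp1, the neuropilin that binds Sema3a, had 521, 325, 217 and 419 with DMSO, 305, 465, 340.4 and 369 with SPI-24 and 1082, 616 and 1048 with SPI-77. The SPI-77 libraries lay above all others, at 1.33 ± 0.29 on the log2 scale (SE; limma adjusted p = 0.0181) against DMSO and 1.28 ± 0.29 (SE; limma adjusted p = 0.0387) against SPI-24, although the gene spans 144.8 kb. Rnd1, a small GTPase that binds plexins, was higher at 1.09 ± 0.30 (SE; limma adjusted p = 0.0318). Flrt2, a ligand of Unc5d, and Rgmb, a ligand of neogenin, were lower at -1.16 ± 0.30 and -1.09 ± 0.28 (SE; limma adjusted p = 0.0259 and 0.0243). Of the co-receptors themselves, Nrp2 had 0.32 ± 0.28 (SE), and Dcc, with mean counts of 26.1 ± 19.5 (SD, n = 4) in DMSO and 4.13 ± 4.00 (SD, n = 3) in SPI-77 libraries, had -2.58 ± 0.85 (SE; limma adjusted p = 0.053).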

How the data were processed

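Gene expression was read in striatal punches of BACHD mice, 4 DMSO, 4 SPI-24 and 3 SPI-77 libraries, grouped by the labels. According to the study's methods, the authors trimmed reads with cutadapt, aligned them to GRCm38 with STAR, dropped reads with several positions and counted reads per gene with HTSeq, which lowers genes with close copies. No source used here states versions or the strand setting. The table the authors deposited holds normalized read counts, a signal obtained by dividing reads by a DESeq2 size factor. Its fold changes and p-values for the authors' own comparisons, and a table of the limits used, were not used. The values were whole multiples of 1 step, so reads were recovered: at least 99.986% came out within 0.1 of a whole read in each library.

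The planned test for raw counts gave way to its stated fallback for normalized values. The scale was log2(normalized count + 1), on which changes of low genes come out too small, for the 16768 genes at 10 or more in at least 3 libraries, and compared with limma 3.58.1 (R 4.3.3; trend, robust) in 1 fit of all 11 libraries, adjusted by Benjamini-Hochberg over all genes. edgeR 4.0.16 and DESeq2 1.42.0 were run on the recovered reads, edgeR with its own filter on low counts. All were run first on simulated counts with the same dispersion for every gene. That setting did not copy the uneven libraries seen here, so it does not show how the tests perform on them. Alternatives were other pseudocounts, no filter, only the groups compared, TMM scaling, a replicate block, no fold limit, each library left out and, chosen after seeing the data, leaving out SPI-24 4 with SPI-77 3, sex read from Xist (above 100) and the medium spiny score as terms.

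Named members were those called, the 3 with the smallest p in each comparison and the highest of each class per exon length with DMSO, and of the other pathway genes those called. Members and lists were chosen with earlier results of these data known. Other genes named were chosen after their values were seen. No pair of libraries of a group agreed within counting noise (lowest chi-square per gene 13.8), and correlations within a group were 0.872 to 0.979. Marker lists of 13 cell types were read, of which cortical, choroid plexus, ependymal, oligodendrocyte, oligodendrocyte precursor and endothelial markers had 0 called against DMSO with either compound. Of the others, 1 astrocyte marker was higher and 1 lower, 1 of 7 microglia markers was lower and 2 of 7 meningeal markers were higher with SPI-77. Against SPI-24, Rarb (medium spiny) and Zic1 (thalamic) were lower and Gfap (astrocyte) was higher with SPI-77. Spans, exons and coordinates (1-based) come from GENCODE vM21 for GRCm38, which matched 20930 of the IDs and all 65 members, and promoters from RefSeq on GRCm38.p6.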

Additional observations from a re-analysis of the deposited data

Results flagged for a closer look

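Among the genes named by rule, 2 values stood far from the other libraries of their group, out of 38 groups of 4 libraries read. Chance sets about 1 in 20 such groups apart. Both were in DMSO 3. Ntn4 had 176.5 normalized counts there and 126.8 to 129.8 in the other DMSO libraries. Robo3 had 81.6 there and 452 to 478 in the others. Robo3 was not called in any comparison. Without DMSO 3, Ntn4 was not among the 6 guidance genes lower with SPI-77 than with DMSO.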

How the results depend on the processing

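For SPI-24 against DMSO the count of guidance genes called was 0 in every fit run. For SPI-77 against DMSO it was 8 to 11 in the other fits with all libraries (8 with a pseudocount of 8 or without the filter, 10 with only the groups compared or TMM scaling, 9 with edgeR, 11 with DESeq2), apart from 0 with the medium spiny score as a term. With the fold limit kept, the fits with 8 to 11 called 872 (limma, replicate block) to 1544 (sex term) genes of the whole table. DESeq2 called 1479, against 1073 in the main fit. For SPI-77 against SPI-24 it was 3 to 7, with 7 by DESeq2, and 0 with the medium spiny score as a term. There DESeq2 called 916 genes of the whole table, against 468 in the main fit. These counts take both directions together. Leaving out 1 library gave 0 to 14 for SPI-77 against DMSO and 0 to 6 for SPI-77 against SPI-24. Over all genes the same fits gave 0 to 1867 and 0 to 804. Leaving out both SPI-24 4 and SPI-77 3 gave 0 in each comparison. The fold changes of the 9 genes against DMSO, and of the 4 against SPI-24, stayed below 0 in every fit. Where libraries were left out the sign could not change, since every SPI-77 library of these genes lay below every library compared.

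The labels number the replicates alike across groups, but same-numbered libraries did not deviate together in every pair, with correlations of -0.16 to 0.21, of which 5 of 10 were over 0.1. Some but not every library correlated best with its own number. With the replicate block, limma called 0, 8 and 3 guidance genes in SPI-24 against DMSO, SPI-77 against DMSO and SPI-77 against SPI-24, and DESeq2 called 0, 10 and 7. Over all genes limma called 0, 872 and 420, and DESeq2 called 9, 1165 and 673. Among the guidance genes called there, Ntn5 was higher against DMSO by both tools, and Ntn5 and Sema3b were higher against SPI-24 by DESeq2. Over single genes and medians, 1250 alternative values kept their side of the threshold or moved within the replicate spread, 116 lost a call, 11 gained one and 3 medians moved further. No called direction reversed, which could not happen where only libraries were left out. Library size limits the lowest genes: at 10.2 M reads, 1 read is worth 1.79 normalized counts.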
